A study of Mus musculus with 8 samples.

Results

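The Myc, Max and Mxd network is a family of transcription factors that meet through a shared partner, Max. Its 8 members here, Myc, Mycn, Max, Mxd1, Mxd3, Mxd4, Mxi1 and Mnt, were taken by gene symbol from the 18877 symbols of the normalized count table. The rule uses symbols alone. All 8 symbols were in the table, and 7 passed the filter on low values, a mean of at least 10 normalized counts over the 8 libraries, that 11754 symbols passed in all.

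Myc and Mycn bind DNA as heterodimers with Max at E-box sequences, of which CACGTG is the best known, and recruit coactivators that raise transcription of genes for growth, ribosome production and metabolism. The Mxd proteins, Mxi1 and Mnt bind Max at the same sequences and recruit Sin3 corepressors with histone deacetylases, so they compete with Myc for both partner and site. Myc is known for its rapid induction when resting cells are driven to grow, and the Mxd proteins are known for their presence in cells that leave the cell cycle or differentiate.

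Transcripts were measured by RNA-seq in activated muscle stem cells (ASCs), the injury-responsive precursors of skeletal muscle, with 4 wild-type and 4 mfn2-/- libraries. Mice of both groups carried the mito-Dendra2 reporter allele under Pax7-CreERT2 and received tamoxifen at 75 mg/kg daily for 5 days by intraperitoneal injection, so the control cells shared the Cre driver and the drug. In the mfn2-/- group conditional alleles of Mfn2, which encodes a fusion protein of the outer mitochondrial membrane, were deleted by the same driver, which acts in cells of the Pax7 lineage and not in other cells of the muscle. At 2 days after the last dose the tibialis anterior was injured with 50 uL of 1.2% BaCl2, and after another 2 days CD34-, Dendra2+, DAPI- cells were sorted from it. Age, and whether libraries came from separate or pooled animals, are not given in the labels, so p-values measure only the spread between these libraries, which may in part be technical.

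Libraries held 1880464 to 7508215 reads assigned to genes. Wild-type replicate 1 and mfn2-/- replicate 4 were the shallowest, and 1 read was worth 0.534 to 2.27 normalized counts. Mfn2 itself gave 202 to 245 normalized counts in wild-type and 104 to 172 in mfn2-/- ASCs, without overlap (two-sided exact permutation p = 0.0286, limma adjusted p = 0.0848). No read of 4 Y-linked genes was found in replicates 1 and 2 of wild-type or in replicates 3 and 4 of mfn2-/-, against 807 to 2336 in the other 4 libraries, which left 2 libraries of each kind per group. The summed level of 10 muscle stem cell markers was 12081 to 17189 in wild-type and 31905 to 43548 in mfn2-/- ASCs, with 4 of the 10 called higher and a median log2 change of 0.345. Most of the higher sum lay in Sdc4 (4271 ± 1529 against 17473 ± 3953) and Des (2156 ± 888 against 7969 ± 2942), which are also expressed outside stem cells. The defining markers Pax7 and Myf5 were present in both groups with changes of 0.10 and 0.07, Myod1 rose by 2.32 on the log2 scale, and Itga7 and Chodl had -0.87 and -0.19. The summed level of 13 fibroadipogenic markers, genes of the connective tissue progenitors of muscle, was 202340 to 259171 in wild-type and 6003 to 10187 in mfn2-/- libraries (11 of 13 called lower), and that of 9 tenocyte (tendon cell) markers was 38669 to 60889 against 306 to 415 (9 of 9 called lower). Of 6 mural markers, genes of vessel-wall cells, 2 were called lower (sums 3727 to 4680 against 2069 to 3456), and of 9 myofiber genes 2 were called higher (1023 to 2864 against 2736 to 3922). Over all tested genes 3.99% were called higher and 6.36% lower. Among the fibroadipogenic markers, Cd34, whose protein the sort gated against, gave 1643 ± 260 normalized counts in wild-type and 454 ± 164 in mfn2-/- libraries. Its log2 change was -1.90 (limma adjusted p = 0.000242). None of the fibroadipogenic or tenocyte markers was at 0 in every mfn2-/- library. However, 1 tenocyte marker had at most 3 reads in each of them, and some markers had reads in only 1 of them. In bulk RNA, fewer cells of a type and less RNA per cell cannot be told apart, and the part of these cells in the results below was not tested.

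The question put to the members was whether their transcripts differed between wild-type and mfn2-/- ASCs. Each gene was tested with limma on log2(normalized count + 1), with Benjamini-Hochberg adjustment over all 11754 tested genes, and a gene was called when the adjusted p was under 0.05. Of the 7 tested members, 0 were called higher and 1, Mxd4, was called lower in mfn2-/- ASCs. The counts were also 0 and 1 at an unadjusted limma p under 0.05 (24.8% of all tested genes), by edgeR (9.85%) and by DESeq2 (14.9%). Over all tested genes 1217 (10.4%) were called, 469 (3.99%) higher and 748 (6.36%) lower. The groups did not overlap for 1 of the 7 members, again Mxd4, against 19.5% of all tested genes. The median log2 change was 0.27 over the 7 members and -0.16 over all tested genes.

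**Figure D1:**
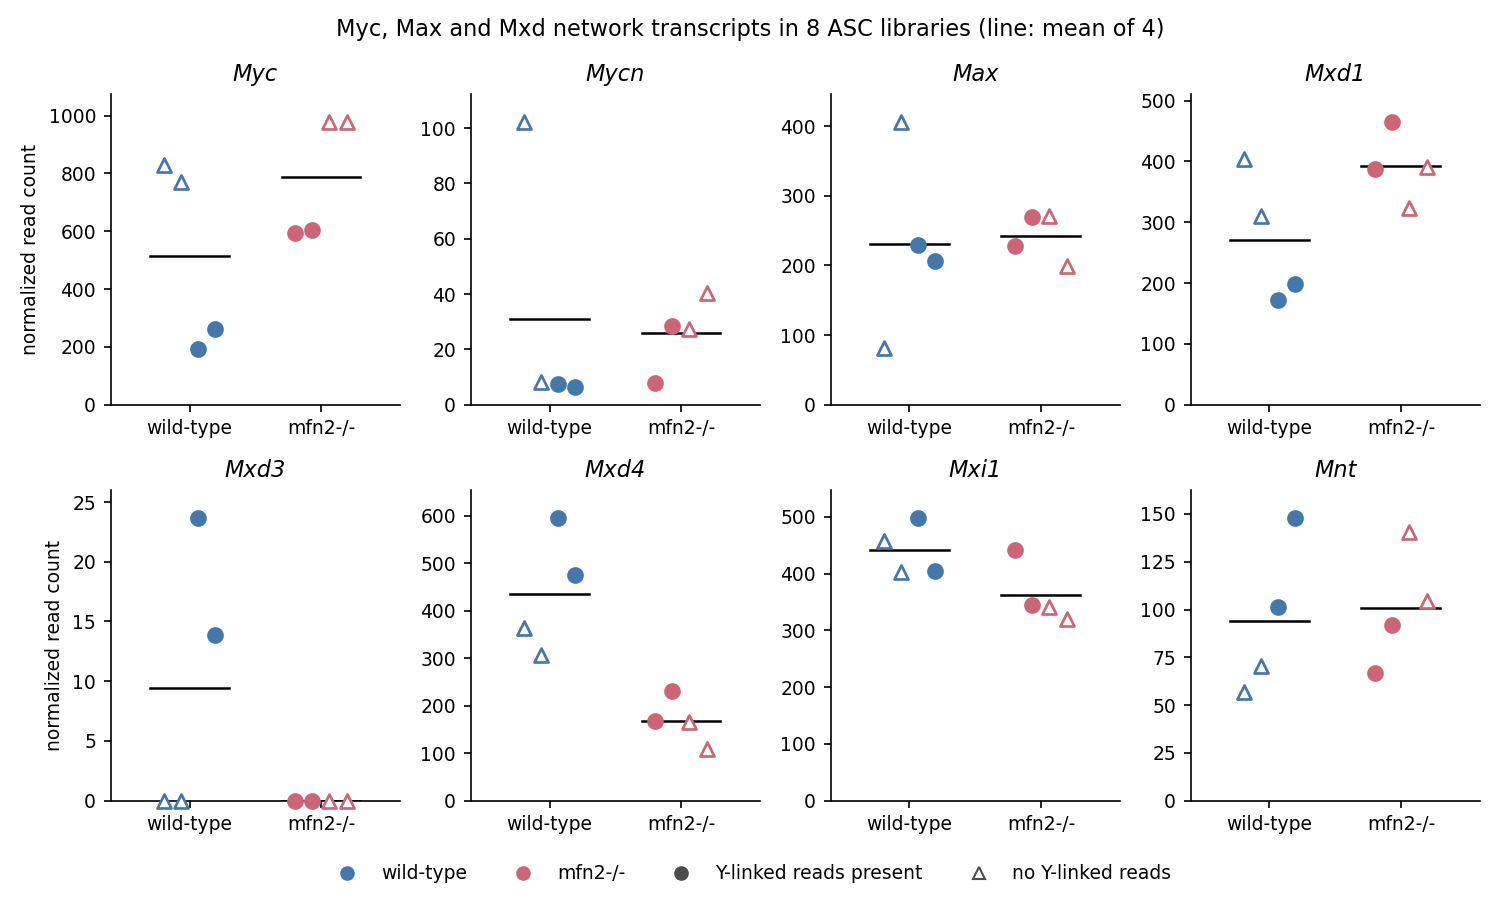
Normalized read count (vertical axis, linear, from 0) of each of the 8 network genes in every library, with wild-type in blue, mfn2-/- in red, and a line at the mean of 4. Filled circles are libraries with Y-linked reads and open triangles those without. Mxd4 is the panel in which all 4 wild-type libraries (308 to 596) sit above all 4 mfn2-/- libraries (108 to 231).

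Mxd4, a repressor that pairs with Max and is known for its rise in differentiating cells, was the member that fell in mfn2-/- ASCs. Wild-type replicates 1 to 4 gave 364, 308, 596 and 475 normalized counts, and mfn2-/- replicates 1 to 4 gave 169, 231, 167 and 108. All wild-type libraries lay above all mfn2-/- libraries. The means were 436 ± 128 and 169 ± 50.1 (SD, n = 4 each), 2.59-fold lower in mfn2-/- ASCs. On the log2 scale the difference was -1.37 (SE 0.31, limma adjusted p = 0.0127), and the two-sided exact permutation test gave p = 0.0286, the smallest that 4 against 4 libraries allow. These values rested on 59 to 890 reads.

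Because the groups did not overlap, Mxd4 had to be lower in both kinds of library, and only the size of the fall could differ. Among libraries with Y-linked reads the log2 change was -1.43, and among those without it was -1.31. The difference between these changes was -0.12 (SE 0.49, limma interaction adjusted p = 0.941). Within wild-type, Mxd4 was highest in replicates 3 and 4, which also had the higher sums of fibroadipogenic markers, 259171 and 248147 against 213376 and 202340 in replicates 1 and 2. The part of those cells in the Mxd4 difference was not tested. Without wild-type replicate 3 the log2 change was -1.20 and the adjusted p 0.0568, and without an intensity trend in the model it was 0.0657. Over the other 20 of 22 tested settings Mxd4 was called.

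Mxd4 lies on chromosome 5, minus strand (GENCODE M21, GRCm38), and 514 of its 3882 exonic bases overlap an opposite-strand gene, Gm42846. The strand setting of the read counting is not given in the sources used here, so reads within that overlap cannot be told apart. Sequence before its start is shown because Mxd4 is the called member and because that stretch holds the letters of the E-box named above. The 250 bases upstream of the RefSeq start (GRCm38.p6, chr5:34187711-34187960, minus strand, 5′ to 3′) contained CACGTG, in capitals, with its first base 219 bases before the start:
Mxd4 upstream: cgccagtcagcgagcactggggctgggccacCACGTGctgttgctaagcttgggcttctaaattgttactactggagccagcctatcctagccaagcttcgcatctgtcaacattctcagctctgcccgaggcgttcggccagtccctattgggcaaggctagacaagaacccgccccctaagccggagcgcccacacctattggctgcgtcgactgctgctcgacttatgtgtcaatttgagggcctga

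The same 6 letters, which read alike on both strands, were found in the windows of 2 other members, Max and Mnt. Neither of these was called. The motif starts 3 bases before the start of Max (chr12:76962226-76962271, minus strand) and 123 before that of Mnt (chr11:74830781-74830826, plus strand). Each is printed with 20 bases on either side:
Max: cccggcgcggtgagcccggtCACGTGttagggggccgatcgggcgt
Mnt: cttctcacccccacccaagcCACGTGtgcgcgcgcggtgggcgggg
Windows ran from 250 bases before to 50 after the start. They were found for 7 members, with none for Myc, and 3 of the 7 (42.9%) held CACGTG, against 2187 of 27025 genes (8.09%) and 2349 of 32851 windows (7.15%). A match describes the letters and does not show that the site is bound.

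Myc, the activator that gives the network its name, had higher values in mfn2-/- ASCs on average but was not called. Wild-type replicates 1 to 4 gave 830.1, 772, 194 and 261 normalized counts, and mfn2-/- replicates gave 593, 605, 978 and 979. The groups overlapped, because wild-type replicates 1 and 2 exceeded mfn2-/- replicates 1 and 2. The means were 514 ± 333 and 789 ± 219, a log2 difference of 0.85 (SE 0.42) that did not pass limma (adjusted p = 0.238) or the two-sided exact permutation test (p = 0.286).

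Wild-type Myc fell into a low pair, replicates 3 and 4 with Y-linked reads, and a high pair without them, and mfn2-/- Myc fell into the corresponding pairs with a smaller gap. Within each kind of library both mfn2-/- values exceeded both wild-type values. The log2 change was 1.41 with Y-linked reads and 0.29 without. The difference of these changes was 1.12 (SE 0.32), with an unadjusted interaction p of 0.00507 and an adjusted p of 0.159, so it did not pass over all genes. Of all tested genes, 1.47% passed that interaction test and 12% had an unadjusted p under 0.05. Myc was also 1.27 lower on the log2 scale in libraries with Y-linked reads than in those without (written as with minus without, -1.27, SE 0.24, limma adjusted p = 0.0582), a contrast in which 0.221% of tested genes passed and 10.3% had an unadjusted p under 0.05. With the presence of Y-linked reads as a term in the model, Myc was called higher in mfn2-/- ASCs at the same log2 change of 0.85 (adjusted p = 0.0384), and with library weights at 1.21 (adjusted p = 0.00300). Those weights were 1.53 to 3.75 for libraries with Y-linked reads and 0.167 to 0.908 for those without. In the other 20 of 22 tested settings Myc was not called. With each library left out in turn the log2 change ran from 0.47, without wild-type replicate 3, to 1.17, without wild-type replicate 1.

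The genes whose profile over the 8 libraries was most like that of Myc were sought in the 5585 genes that averaged 100 or more normalized counts. Likeness was the root-mean-square difference between log2 profiles, each centred on its own mean, for which the median gene gave 0.955. The nearest were Hk2 (0.181), Pvr (0.243), Sertad1 (0.263), Rps3 (0.303) and Zswim4 (0.305). Hk2, the hexokinase that starts glucose breakdown, gave 1130, 1394, 353 and 341 normalized counts in wild-type replicates 1 to 4 and 858, 921, 1782 and 1514 in mfn2-/- replicates. It was low in the same wild-type pair and high in the same mfn2-/- pair as Myc. These profiles share the libraries and their depth, and the likeness is a description.

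**Figure D2:**
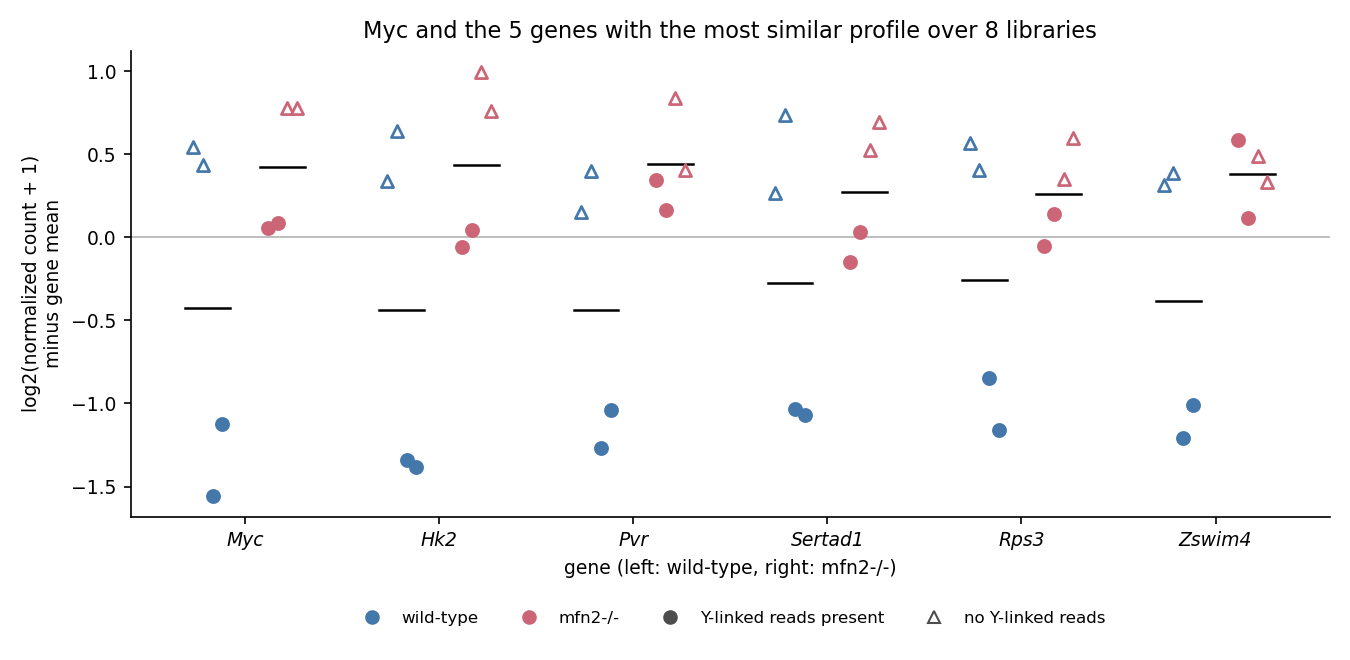
Log2(normalized count + 1) minus the gene's mean (vertical axis) for Myc and the 5 genes nearest to it, with wild-type in blue at left, mfn2-/- in red at right and a line at each group mean. Filled circles are libraries with Y-linked reads and open triangles those without. In each gene wild-type replicates 3 and 4 are the 2 lowest libraries.

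Mycn, the Myc relative best known from developing tissues, was weak. Wild-type replicate 1 gave 102 normalized counts from 45 reads, and the other wild-type libraries gave 8.30, 7.35 and 6.41. The mfn2-/- libraries gave 8.0, 28.4, 27.3 and 40.3. The log2 change was 0.60 (SE 1.12, adjusted p by limma = 0.786) with an exact permutation p of 0.514. The direction rested on the scale, since the linear means were 31.1 ± 47.5 in wild-type and 26.0 ± 13.4 in mfn2-/- ASCs and the count models gave negative values. Without wild-type replicate 1 the log2 change was 1.50.

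Max, the partner that every other member needs, did not pass the test. Its values were 81.9, 407, 229 and 206 in wild-type and 227, 270.2, 270.4 and 199.7 in mfn2-/- ASCs. The wild-type range enclosed the mfn2-/- range. The means were 231 ± 134 and 242 ± 34.7, and the log2 change was 0.27 (SE 0.41, adjusted p by limma = 0.734) with an exact permutation p of 0.714. The lowest value came from 36 reads in wild-type replicate 1, without which the change was -0.16.

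Mxd1, a Max-binding repressor, had values of 405, 310.1, 171 and 199 in wild-type and 388, 465, 324 and 390.3 in mfn2-/- ASCs. The groups overlapped through wild-type replicate 1. The means were 271 ± 107 and 392 ± 57.7, and the log2 change was 0.60 (SE 0.29, adjusted p by limma = 0.227) with an exact permutation p of 0.114. With library weights, which were higher for libraries with Y-linked reads, it was 1.03 (adjusted p = 0.00131). That was the only one of 22 tested settings in which Mxd1 was called. The log2 change was 1.20 in libraries with Y-linked reads and 0.01 in those without, a difference of 1.19 (SE 0.41, limma interaction adjusted p = 0.272 and unadjusted p 0.0159).

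Mxd3, the family member linked to dividing cells in S phase, was detected in 2 of 8 libraries. Wild-type replicates 3 and 4 gave 23.7 and 13.9 normalized counts from 29 and 26 reads, and the other 6 libraries, the 4 mfn2-/- libraries among them, had 0 reads. The mean of 4.70 kept it out of the limma test, and the exact permutation test gave p = 0.429. A count of 0 allows up to 3 reads, which is 2.00 to 5.50 normalized counts in the mfn2-/- libraries and 6.82 and 3.11 in wild-type replicates 1 and 2. Both libraries with reads were wild-type with Y-linked reads, and the 2 mfn2-/- libraries with Y-linked reads had 0. Of its 1327 exonic bases 105 overlap an opposite-strand gene, Prelid1.

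Mxi1, a repressor also known as Mxd2, gave 457, 402, 498 and 405 normalized counts in wild-type and 441, 345, 340.5 and 321 in mfn2-/- ASCs. The groups overlapped through mfn2-/- replicate 1, and the means were 441 ± 45.9 and 362 ± 53.7. The log2 change was -0.29 (SE 0.21, adjusted p by limma = 0.437) with an exact permutation p of 0.0857, and it was negative in both kinds of library, at -0.20 and -0.38. An opposite-strand gene, Gm10197, shares 194 of its 6656 exonic bases.

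Mnt, the widely expressed repressor that opposes Myc at shared sites, gave 56.9, 70.5, 101 and 148 normalized counts in wild-type and 66.7, 91.6, 141 and 104.5 in mfn2-/- ASCs. The wild-type range enclosed the mfn2-/- range, and the log2 change was 0.14 (SE 0.47, adjusted p by limma = 0.878) with an exact permutation p of 0.743. The sign differed with the kind of library, at -0.64 with Y-linked reads and 0.93 without. The difference of -1.57 (SE 0.81) had an interaction p of 0.0825 and an adjusted p of 0.482. Of all tested genes 36.2% had opposite signs in the 2 kinds of library.

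**Figure D3:**
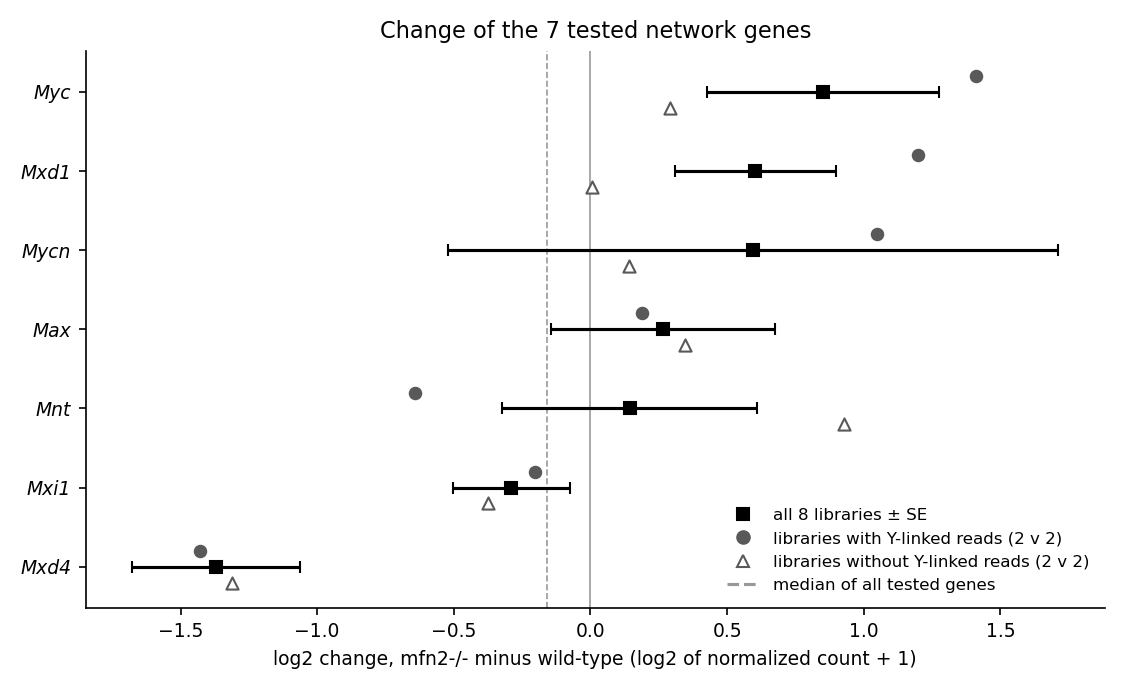
Log2 change, mfn2-/- minus wild-type, on the log2(normalized count + 1) scale (horizontal axis) for the 7 tested network genes. Squares with bars are all 8 libraries ± SE, circles are libraries with Y-linked reads, triangles those without, and the dashed line is the median of all tested genes (-0.16). For Mxd4, at -1.37, circle and triangle lie close together, whereas the circle and triangle of Myc, Mxd1 and Mnt lie apart.

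Levels of different genes were compared per kilobase of exon, as normalized counts divided by exonic length. In wild-type ASCs the order of mean levels was Myc (210.1), Max (118), Mxd4 (112), Mxi1 (66.2), Mxd1 (58.1), Mnt (20.5), Mycn (11.1) and Mxd3 (7.08). Among neighbours in that order the library ranges did not overlap between Mxd4 and Mxi1 or between Mxd1 and Mnt, and overlapped in the other pairs. In mfn2-/- ASCs the order was Myc (322), Max (124), Mxd1 (84.0), Mxi1 (54.4), Mxd4 (43.4), Mnt (22.0), Mycn (9.27) and Mxd3 (0). There the ranges of Myc and Max, of Max and Mxd1, of Mxd1 and Mxi1 and of Mnt and Mycn did not overlap, and those of Mxi1 and Mxd4 and of Mxd4 and Mnt did. Mxd3 had 0 reads in all 4 mfn2-/- libraries. By mean level Mxd4 thus stood ahead of Mxi1 and Mxd1 in wild-type and behind both in mfn2-/- ASCs.

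The make-up of the Mxd transcripts followed from these levels. Of the summed per-kilobase signal of Mxd1, Mxd3, Mxd4 and Mxi1, Mxd4 held 37.6%, 38.5%, 54.3% and 51.8% in wild-type replicates 1 to 4 and 22.5%, 28.2%, 26.2% and 17.4% in mfn2-/- replicates. Mxd1 held 34.8%, 32.2%, 13.0% and 18.0% in wild-type and 43.1%, 47.3%, 42.5% and 52.4% in mfn2-/- ASCs. For both shares the groups did not overlap, and the share of Mxi1, 24.6% to 34.3%, overlapped.

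The ratio of Mxd1 to Mxd4 per kilobase ran from 0.239 to 0.926 in wild-type and from 1.62 to 3.00 in mfn2-/- ASCs, without overlap. The ratio depends on the exon lengths used, and in wild-type replicate 1 it rested on 178 and 160 reads, with 405 and 364 normalized counts for Mxd1 and Mxd4 before division by length. The sum of the Mxd genes was 206 to 283 in wild-type and 159.7 to 211 in mfn2-/- ASCs, with overlap. The ratio of Myc to that sum was 1.36, 1.53, 0.279 and 0.452 in wild-type and 1.26, 1.17, 2.44 and 2.50 in mfn2-/- ASCs. The 2 groups overlapped on it, and wild-type replicates 3 and 4 stood lowest. Shares and ratios are built from the members and were not tested.

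**Figure D4:**
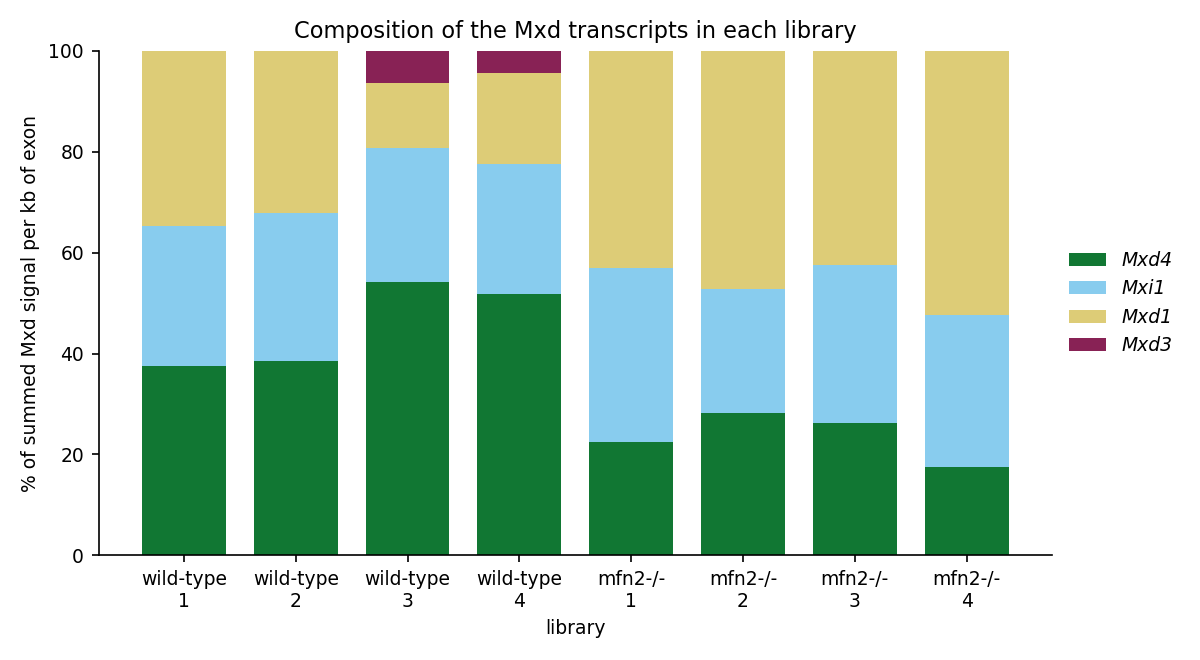
Share of the summed per-kilobase Mxd signal (vertical axis, percent, from 0 to 100) held by Mxd4, Mxi1, Mxd1 and Mxd3 in each of the 8 libraries (horizontal axis). The Mxd4 part at the base of each bar runs from 37.6% to 54.3% in wild-type and from 17.4% to 28.2% in mfn2-/- libraries.

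Of 5 other factors that join this network, 0 were called by limma, edgeR or DESeq2. Of these 1, Mga, had an unadjusted limma p under 0.05 (24.8% of all tested genes). Mycl, listed under the older symbol Mycl1, differed by -1.81 in log2 (SE 1.42, limma adjusted p = 0.467), and Mlx, the Max-like partner, had -1.35 (SE 1.21, adjusted p = 0.531), which was -0.07 without mfn2-/- replicate 4, where Mlx had 0 reads. The glucose-responsive partners of Mlx gave 0.18 for Mlxip (adjusted p = 0.667) and 0.19 for Mlxipl (adjusted p = 0.926). Mlxipl had a log2 change of 2.32 in libraries with Y-linked reads and -1.94 in those without (difference 4.26, SE 1.58, limma interaction adjusted p = 0.307), and it was called with library weights (1.69, adjusted p = 0.0257). For Mlxip the values were 0.60 and -0.23 (interaction adjusted p = 0.379). Mga, a large Max partner with repressive activity, averaged 1475 ± 186 normalized counts in wild-type against 1065 ± 192 in the mutant (log2 difference -0.48, SE 0.19, adjusted p = 0.129). Mga was called under quantile normalization (-0.62, adjusted p = 0.0483). Some exonic bases of Mlx and Mlxip overlap opposite-strand genes. All 5 factors had a window, and 2 of them, Mlx and Mlxipl, held CACGTG there (8.09% of all genes did).

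The cofactors of both arms were then examined. Of 11 Myc coactivators, 2 rose (3.99% of all tested genes were called higher), with a median log2 change of 0.15. Among them Ccnt1, the cyclin of the elongation kinase P-TEFb, went from 229 ± 13.6 to 414 ± 44.3 normalized counts, without overlap (0.85 in log2, SE 0.22, limma adjusted p = 0.0285), and was called in 14 of 22 tested settings. The most abundant uncalled coactivators, Ep400, Trrap and Ruvbl1, had 0.12, 0.15 and 0.22. Of 6 Mxd and Mnt corepressors, 0 were called by limma, edgeR or DESeq2, and 0 had an unadjusted limma p under 0.05 (24.8% of all tested genes). Their median was 0.22, with Ncor1 at 0.35 and Sin3a at 0.33.

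Of 11 tested genes that act on Myc protein, 2 rose (3.99% of all tested genes were called higher). Pim1, a kinase that phosphorylates Myc, went from 305 ± 185 to 659.8 ± 90.9 normalized counts (log2 change 1.33, limma adjusted p = 0.0449), and Huwe1, a ubiquitin ligase for which Myc is a substrate, from 4204 ± 621 to 6856 ± 970.5 (0.71, adjusted p = 0.0313). Pim1 was called in 11 of 22 tested settings. Libraries with and without Y-linked reads gave 2.14 and 0.52 for Pim1 and 1.06 and 0.35 for Huwe1 (interaction adjusted p = 0.0870 and 0.0536). Set, Gsk3b and Ppp2r5a were not called, with changes of 0.59, -0.32 and 0.29.

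Known Myc targets were grouped by function. Of 32 nucleolar and ribosome biogenesis genes, 4 rose and 0 fell by limma (3.99% and 6.36% of all tested genes). Their median log2 change was 0.47. At an unadjusted p 7 were higher (10.4% of all tested genes were) and 0 lower, and edgeR and DESeq2 each called 5 higher (4.26% and 5.54% of all genes) and 0 lower. Nop58, a core protein of small nucleolar ribonucleoproteins, went from 769 ± 243 to 2382 ± 641 normalized counts (1.64, limma adjusted p = 0.00135). Its change was 2.37 in libraries with Y-linked reads and 0.91 in those without, a difference that passed the interaction test (adjusted p = 0.0173). Gnl3 (nucleostemin), the RNA helicase Ddx21 and the nucleolar protein Ncl rose by 1.18, 1.01 and 0.81 on the log2 scale. Ncl was called in 11 of 22 tested settings. The more abundant genes Npm1, Mybbp1a and Wdr43, not called by limma, had 0.79, 0.28 and 0.52. Npm1 was called in 5 of 22 tested settings, among them edgeR (0.91, adjusted p = 0.0461) and DESeq2 (0.86, adjusted p = 0.0253).

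Of 25 tested nucleotide, polyamine and nutrient genes, 3 rose and 0 fell by limma (3.99% and 6.36% of all tested genes). Their median log2 change was 0.28. At an unadjusted p 5 were higher (10.4% of all tested genes were) and 0 lower. edgeR called 2 higher and DESeq2 3 (4.26% and 5.54% of all genes), with 0 lower by either. Tfrc, the transferrin receptor, went from 90.9 ± 36.9 to 282 ± 105 normalized counts (1.63, limma adjusted p = 0.0172), with 0.97 and 2.30 in libraries with and without Y-linked reads. Ldha, which makes lactate, and Odc1, the first enzyme of polyamine synthesis, rose by 0.98 and 0.95 on the log2 scale. Odc1 was called in 11 of 22 tested settings. Odc1 gave 1.69 with Y-linked reads and 0.21 without, a difference that passed the interaction test (adjusted p = 0.0210). Hk2 and Slc3a2 had 0.87 and 0.77 and were not called, though each was called in 2 of 22 tested settings.

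Cell cycle targets were mixed. Of 11 tested, 1 rose and 1 fell by limma (3.99% and 6.36% of all tested genes). Mcm4, a subunit of the replicative helicase, rose from 301 ± 37.6 to 678 ± 188 normalized counts (log2 change 1.13, limma adjusted p = 0.0128). Ccnd2, a D-type cyclin, fell from 470.0 ± 134 to 51.5 ± 28.6 (-3.31, adjusted p = 0.000474). The list's median was -0.77 over all libraries, -1.83 among libraries with Y-linked reads and 0.74 among those without. Over all tested genes the median was -0.16 in each kind of library. Some genes of this list were weak, with 0 reads in some libraries. Ccnd1, Cdk4 and E2f3 had -1.07, -0.77 and -0.17 and were not called. Ccnd1 was -2.39 with Y-linked reads and 0.25 without (interaction adjusted p = 0.0173), and it was called with the replicate block (adjusted p = 0.0256), with library weights (-1.90, adjusted p = 5.6e-05) and in the 6 deeper libraries, a setting chosen after seeing the data (-1.58, adjusted p = 0.0341). Cdk4 was called with library weights (-1.29, adjusted p = 0.0142).

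Of 9 genes that Myc is known to repress, 3 rose and 1 fell (3.99% and 6.36% of all tested genes). Their median log2 change was 0.94. Cdkn1a, an inhibitor of cyclin-dependent kinases, went from 192 ± 94.6 to 612 ± 181 normalized counts (1.74, limma adjusted p = 0.00920), while Gadd45a and Ndrg1, both stress-responsive genes, rose by 1.40 and 1.19 on the log2 scale. Cdkn1c, another kinase inhibitor, fell from 1691 ± 876 to 519 ± 265 (-1.68, adjusted p = 0.0161), with overlapping groups. The changes in libraries with and without Y-linked reads were 2.67 and 0.82 for Cdkn1a, 2.28 and 0.52 for Gadd45a and -2.63 and -0.72 for Cdkn1c, and none of these differences passed the interaction test (adjusted p = 0.126, 0.0584 and 0.168). Gas1, Cdkn1b and Ndrg2 had -1.22, 0.29 and 0.94 and were not called. Gas1 was called in 6 and Ndrg2 in 3 of 22 tested settings.

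Over all 68 tested Myc-activated targets, 8 rose (3.99% of all tested genes were called higher) and 1 fell (6.36% called lower), and the median log2 change was 0.30 against -0.16 for all tested genes. In the lists of partners and targets 17 genes were called, and all 17 had the same sign in both kinds of library. They were called on these same libraries, so that agreement was largely set by the call and adds no support. Of the 17, 2, Nop58 and Odc1, passed the interaction test (1.47% of all tested genes did). At an unadjusted interaction p under 0.05 there were 8 of the 17 (12% of all tested genes). The median of the activated targets was 0.09 among libraries with Y-linked reads and 0.46 among those without, where all tested genes gave -0.16 in each kind. Under quantile normalization the median of all tested genes moved to 0.07. The marker sums given above, of muscle stem cell, fibroadipogenic, tenocyte, mural and myofiber genes, differed between the same libraries, and their part in these target changes was not tested. Among genes with a window, CACGTG stood in 6 of 27 nucleolar genes (22.2%) and 5 of 23 nucleotide and nutrient genes (21.7%). It stood in 2 of 9 cell cycle genes and 0 of 7 repressed targets, against 8.09% of all genes. It also stood in 3 of 11 genes that act on Myc protein (27.3%), 1 of 10 coactivators and 0 of 4 corepressors. The nucleolar genes that held it were not called, whereas Ldha and Pim1, which also held it, were.

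**Figure D5:**
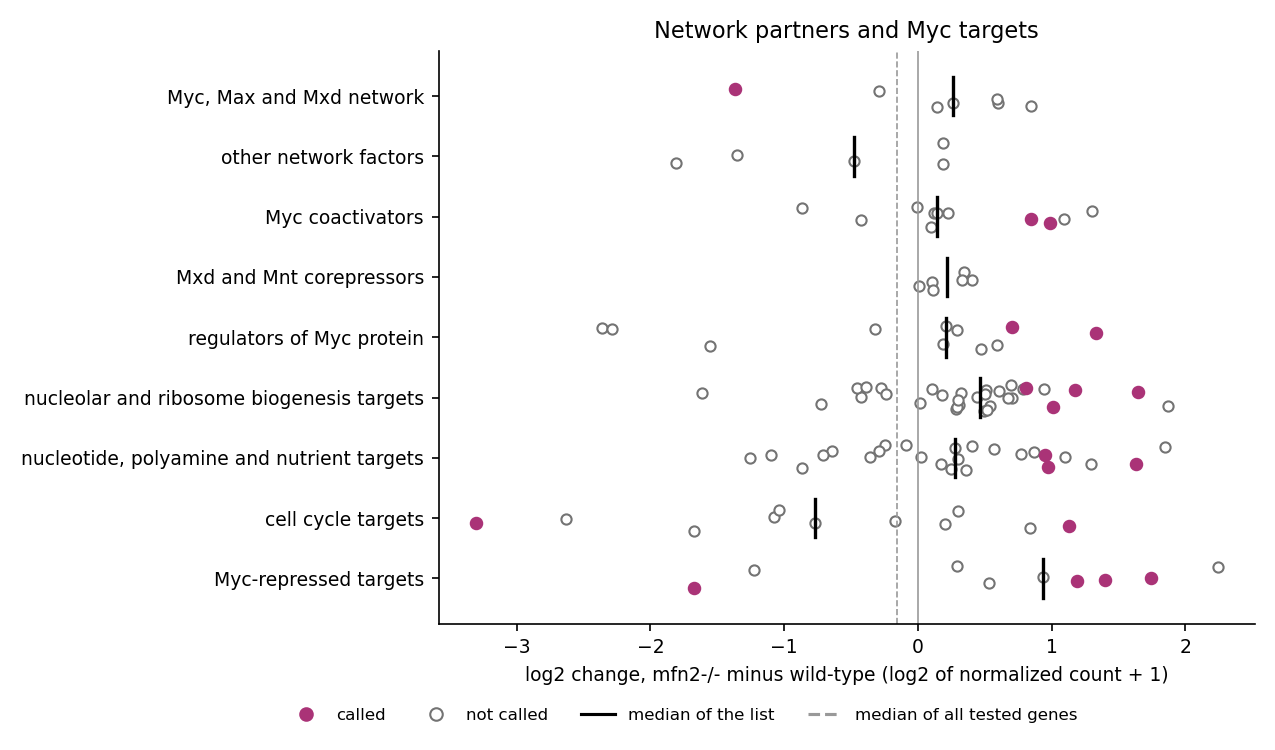
Log2 change, mfn2-/- minus wild-type, on the log2(normalized count + 1) scale (horizontal axis) of each tested gene in the network and in 8 lists of partners and Myc targets. Filled points were called, open points were not, black ticks mark list medians, and the dashed line marks the median of all tested genes (-0.16). Nucleolar targets have a median of 0.47 and cell cycle targets -0.77.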

How the data were processed

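RNA of 8 libraries, 4 wild-type and 4 mfn2-/-, was made with a stranded low-input total RNA kit. Groups and replicate numbers came from the sample titles. Each deposited value is the signal of 1 gene in 1 library, a read count that the authors had divided by 1 size factor per library. The submitters' processing notes name Trim Galore, HISAT2, featureCounts, DESeq2 and mm9. Their versions, roles and strand setting are not given in the sources used here. Every value (100%) was a whole multiple of its column's step (tolerance 0.01), so whole reads were recovered. 0 columns were left unused, and 24 symbols that a spreadsheet had turned into dates stayed in the tests.

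Genes with a mean of at least 10 were tested on log2(value + 1) with limma 3.58.1 in R 4.3.3, with an intensity trend, two-sided, at an adjusted p of 0.05. On this scale the change of weak genes can differ from that of the count models in either direction. Mycl gave -1.81, against -2.67 with edgeR and -2.82 with DESeq2, and Mlx gave -1.35, against -0.44 and -0.55. Single values were compared with exact permutation tests over 70 arrangements. edgeR 4.0.16, with its quasi-likelihood test, and DESeq2 1.42.0 on the recovered reads were alternatives, calling 1158 and 1738 genes. Other alternatives were pseudocounts, filters, scaling, no trend, library weights, a term for Y-linked reads, the replicate number as a block and each library left out. The calls of limma, edgeR and DESeq2 between the 2 groups were tested on simulated counts. Those counts held no difference between libraries with and without Y-linked reads, and no result above rests on them. Replicates of a group differed by a chi-square of 11.99 to 87.39 per degree of freedom, so none was counted as a duplicate. Without molecular identifiers, limits from counts cover counting error only. Exon lengths came from GENCODE M21 (GRCm38) and promoter windows from RefSeq (GRCm38.p6), since the table holds no coordinates. Tables and figures were made in Python 3.11.15.

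All members and Mfn2 are named, with every other factor of the network. Of each list the called genes, at most 6 in each direction, and the 3 most abundant uncalled ones are named, apart from a few that are not reported here. The 5 genes nearest to Myc are named too. The members and lists were chosen with earlier results of these data known.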

Additional observations from a re-analysis of the deposited data

Results flagged for a closer look

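Among 27 groups of 4 libraries, those of the 8 members, the 5 other network factors and Mfn2 without the mfn2-/- group of Mxd3 (all at 0), 3 held a value far from the other 3 by Dixon's 95% criterion, where chance gives about 5%, or 1.35 groups. Mycn in wild-type replicate 1 was 102.3 normalized counts, from 45 reads, and 6.41 to 8.30 in the other wild-type libraries. Mycl in wild-type replicate 4 was 59.3, from 111 reads, and 0 to 9.80 in the others. Mlx in mfn2-/- replicate 4 was 0, and 31.3 to 37.6 in the others. That library and wild-type replicate 1 were the shallowest of their groups.

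For Mnt, the change in libraries with Y-linked reads and that in libraries without them had opposite signs, with a difference of -1.57 on the log2 scale. In libraries with Y-linked reads both mfn2-/- values (66.7 and 91.6 normalized counts) lay below both wild-type values (101 and 148), and in those without, both mfn2-/- values (141 and 104.5) lay above both (56.9 and 70.5). In limma the interaction had an adjusted p of 0.482 over all tested genes.

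Ruvbl1 also had opposite signs in the 2 kinds of library, with a difference of -1.82 on the log2 scale. Libraries with Y-linked reads gave 208 and 156 normalized counts in mfn2-/- and 364 and 231 in wild-type ASCs, and those without gave 394 and 288 against 150.1 and 156. In limma its interaction had an adjusted p of 0.167. The interaction passed for Nop58, which differed by 1.46 between the kinds (adjusted p = 0.0173), for Odc1 by 1.48 (adjusted p = 0.0210) and for Ccnd1 by -2.64 (adjusted p = 0.0173), where 1.47% of all tested genes passed.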

How the results depend on the processing

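Mxd4 was called in 20 of 22 tested settings, with adjusted p from 0.000279 to 0.0657. It was not called without the intensity trend (log2 change -1.37, adjusted p = 0.0657) or without wild-type replicate 3 (-1.20, adjusted p = 0.0568), and its range with each library left out was -1.54 to -1.17. Members called were 0 without the trend, 3 with library weights (Myc at 1.21, Mxd1 at 1.03, and Mxd4), 2 with a term for Y-linked reads (Myc at 0.85, and Mxd4), and 0 to 1 with each library left out. Mxd1 gave 1.20 and 0.0059 in libraries with and without Y-linked reads, and Mnt -0.64 and 0.93.

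Signs turned for weak or uncalled genes. Mycn gave -0.15 with edgeR and -0.23 with DESeq2. Restricting to the 6 deeper libraries, an alternative chosen after seeing the data, gave -0.0704 for Max, -0.10 for Mnt and -0.0126 for Ruvbl1. Library weights gave -0.31 for Mnt and -0.39 for Ruvbl1. Quantile normalization gave -0.0198 for Ep400 and 0.14 for E2f3. With each library left out the log2 changes ran from -0.16 to 0.61 for Max, -0.0647 to 0.39 for Mnt, -0.45 to 1.27 for Mlxipl, -0.0015 to 0.49 for Ruvbl1 and -0.72 to 0.13 for E2f3.

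Genes called were 633 (113 higher) without the trend and 3037 (1398 higher, 1639 lower) with library weights. The weights were 1.53 to 3.75 for libraries with Y-linked reads and 0.167 to 0.908 for those without. With each library left out, genes called were 670 to 1307, 235 to 470 of them higher and 435 to 837 lower. In the lists of partners and targets, members left out, 17 genes were called (15 higher, 2 lower), 3 without the trend (2 higher, 1 lower), 32 with weights (23 higher, 9 lower) and 4 lower under quantile normalization. With each library left out they were 10 to 18, with 9 to 16 higher and 1 to 3 lower, and the lowest total of 10 came without wild-type replicate 3 or 4. The causes were not tested.

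The replicate numbers did not pair the libraries: deviations of same-numbered libraries correlated at -0.111 to 0.038, and 0 of 4 wild-type libraries correlated best with its own number. With the replicate block 1043 genes were called, and Mxd4 was called at -1.37 (adjusted p = 0.0288). Mxd3, Mycn and Mlx rest on few reads, and not only in the shallowest libraries (1880464 and 2269009 reads). Mycn had 45 reads in wild-type replicate 1, the shallowest, and 12 in wild-type replicate 4, the deepest.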
